A study of Mus musculus with 20 samples.

Results

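The comparison covered 9 of the 20 arrays of a series on mouse skin carcinoma, namely the 9 tumors whose labels gave an undifferentiated, spindle cell carcinoma or mixed histology. Of these, 4 came from RbΔEC; Trp53ΔEC mice, called Rb;Trp53 tumors from here on, and 5 from Trp53ΔEC mice, called Trp53 tumors. The Rb;Trp53 tumors were number 1 (spindle cell carcinoma), numbers 3 and 5 (undifferentiated) and number 4 (mixed), and the Trp53 tumors were number 1 (spindle cell carcinoma), number 2 (undifferentiated) and numbers 3, 5 and 7 (mixed). The members were chosen by these labels alone, and the question was how gene expression differed with the loss of Rb1 once the 6 poorly differentiated tumors (4 Rb;Trp53 and 2 Trp53) had been set aside. Both genotypes carried floxed Trp53 alleles and a Cre recombinase under the keratin 14 promoter, which deletes floxed genes in the basal cells of stratified epithelia, and only the Rb;Trp53 mice carried floxed Rb1 alleles as well. All animals were of FVB strain, all 9 samples were labelled squamous cell carcinoma, and the labels gave no age for the tumors. The 5 samples of normal skin came from wild type mice of 2 months and are given as a background level only. Whether any of the tumors shared a mouse is not given, and p-values therefore reflect only how much these samples vary among themselves.

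The retinoblastoma protein, encoded by Rb1, is a pocket protein that binds E2F transcription factors and keeps them from activating genes needed for DNA synthesis. Cyclin D with Cdk4 or Cdk6, and later cyclin E with Cdk2, phosphorylate it and release E2F, and the Cdk inhibitors of the Ink4 and Cip/Kip families hold these kinases back. The p53 protein, deleted in the epithelium of both genotypes, acts on the same axis through its target Cdkn1a. In epidermis, loss of Rb1 is known to raise keratinocyte proliferation and to disturb differentiation.

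The values were the deposited log2 expression values (RMA), of which 1 probeset was kept for each of 18193 genes, and all differences are Rb;Trp53 minus Trp53 on the log2 scale. Array medians lay between 5.65 and 5.73 in the 9 tumors, and the difference between 3′ and 5′ probesets of Actb, a sign of RNA breakdown, lay between 0.24 and 0.66, highest in Rb;Trp53 tumor 4. The labelled tissue was only partly borne out by its markers. Keratin 14 (Krt14), whose promoter drove the Cre, was at 9.16, 5.18, 8.85 and 4.43 in Rb;Trp53 tumors 1, 3, 4 and 5 and at 4.71, 11.38, 12.02, 10.25 and 10.89 in Trp53 tumors 1, 2, 3, 5 and 7, against 14.18 to 14.56 in the poorly differentiated tumors. The mean of 27 epithelial junction and basal genes was 6.53, 5.38, 6.33 and 5.57 in the Rb;Trp53 tumors and 5.49, 7.10, 9.61, 9.59 and 8.51 in the Trp53 tumors. The 3 mixed Trp53 tumors thus had the highest means of this list, well above the mixed Rb;Trp53 tumor. Other keratinocyte genes were ordered differently, the mean of the epidermal differentiation genes being highest in undifferentiated Trp53 tumor 2 (7.50, against 6.79, 5.7 and 7.42 in the mixed Trp53 tumors). In bulk tissue, fewer cells of a type and less RNA per cell cannot be told apart. From here on, values in a sentence follow this order of tumors.

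Rb1 itself was measured at 8.14, 8.03, 6.55 and 8.02 in the Rb;Trp53 tumors and at 7.86, 7.93, 7.85, 8.26 and 8.46 in the Trp53 tumors. The groups overlapped, and Rb;Trp53 tumor 4 alone lay below every other tumor of the 9. The difference was −0.39 (SE 0.33, 95% interval −1.15 to 0.37, adjusted p = 0.896 by limma), and an exact two-sided permutation test over every regrouping of the 9 tumors gave p = 0.389, where 0.0159 is the smallest possible. Without tumor 4 it was −0.01. In the poorly differentiated tumors Rb1 was at 7.53, 7.15, 7.27 and 6.88 with and 8.84 and 8.33 without the Rb1 deletion, which left no overlap, and normal skin lay between 8.95 and 9.26. Whether this probeset lies in the deleted part of the gene is not known, and the tumors hold stroma with intact Rb1, so the level neither bears out nor contradicts the labels. A second Rb1 probeset stayed between 3.75 and 4.15 in all 9 tumors. Of the listed neighbours of Rb1 on its chromosome 7 were measured, with a median difference of 0.04 and the largest for Rcbtb2, the gene next to it, at 0.49 (SE 0.18, adjusted p = 0.824).

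No gene passed an adjusted p under 0.05 in either direction, 0% of the 18193, and the lowest adjusted p by limma was 0.135. At an unadjusted p under 0.05 there were 454 genes higher (2.5%) and 579 lower (3.18%), where 5.68% in both directions together is close to the 5% that the threshold allows. The methods' t-test, run on the same values, also called 0 genes after adjustment. The median standard error of a difference was 0.23, and differences as large as 3.77 did not pass the adjusted test with 4 and 5 tumors. Among the 45037 probesets, 3 were higher and 3 lower at the adjusted p under 0.1 that the study's methods used for genotypes, 0.0133% of those tested. By the methods' t-test, Welch's test or the fit with a replicate block 0 probesets passed 0.1 in either direction. The groups did not overlap for 216 genes that were higher in every Rb;Trp53 tumor (1.19%) and 222 that were lower (1.22%).

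The genes with the smallest p are given here as values. Shox2, a homeobox transcription factor of limb and heart development, was at 9.28, 9.81, 9.84 and 9.88 in the Rb;Trp53 tumors and at 5.80, 5.78, 5.74, 5.03 and 7.30 in the Trp53 tumors. The difference of 3.77 (SE 0.40, adjusted p = 0.135) equals a 13.7-fold ratio, and it rests on a narrow band in the Rb;Trp53 tumors, while skin lay between 7.97 and 8.68. Leaving out Trp53 tumor 7, the highest of its group, gave 4.11 with an adjusted p = 0.0023, and over all alternatives the adjusted p ran from there to 0.597 with the replicate block, with differences from 2.97 to 4.13. In the poorly differentiated tumors Shox2 did not separate the genotypes (6.93, 6.29, 4.84 and 4.68 against 8.25 and 4.10). Acan, which encodes the cartilage proteoglycan aggrecan, had the same form, with 6.11, 7.66, 6.98 and 6.96 against 4.51, 5.09, 5.12, 4.81 and 4.99 (difference 2.02, SE 0.29, adjusted p = 0.256). There too the poorly differentiated tumors overlapped, with a difference of −0.43.

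Other genes differed in both grades. Cap1, whose product binds actin monomers and speeds actin turnover, was at 10.56, 11.27, 9.63 and 11.59 against 8.66, 9.04, 8.27, 6.70 and 7.53 (difference 2.72, SE 0.55, adjusted p = 0.64). In the poorly differentiated tumors it was at 10.70, 11.02, 10.95 and 10.91 against 7.19 and 8.43, and skin lay lower still, between 5.75 and 6.5. Every Rb;Trp53 tumor of the series was thus above every Trp53 tumor. Laptm4a, a lysosomal membrane protein, was at 11.38, 11.47, 11.65 and 11.85 against 12.38, 12.62, 12.82, 12.59 and 13.10, and its difference of −1.11 (SE 0.17, adjusted p = 0.346) was also −1.11 in the poorly differentiated tumors. Pik3r1, the p85α regulatory subunit of PI3-kinase, was at 7.82, 7.4, 7.99 and 7.90 against 8.86, 9.08, 9.86, 9.75 and 9.03 (difference −1.54, SE 0.25, adjusted p = 0.346), with 7.58, 7.34, 7.91 and 7.91 against 8.85 and 8.69 in the poorly differentiated tumors. Both of these genes were lower in all 8 Rb;Trp53 tumors of the series than in any of the 7 Trp53 tumors. Gbp2b, an interferon-inducible guanylate-binding protein, was at 5.13, 5.60, 3.78 and 5.18 against 8.73, 8.87, 7.4, 8.21 and 6.85, the largest negative difference among these genes at −3.09 (SE 0.51, adjusted p = 0.346).

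The remaining genes among the 10 with the smallest p in each direction had smaller differences. Those higher in the Rb;Trp53 tumors were Zfp994 (1.64), Zfp40 (1.15), Ccdc88a (1.10, the actin-binding protein girdin), Cyp4f18 (0.84), Zfp995 (0.81), 9530077C05Rik (0.75) and Lsm6 (0.70, a protein of RNA processing). Those lower were Kif21a (−1.78, a kinesin motor), Trnp1 (−1.76), Vapb (−1.72, a protein of the endoplasmic reticulum), Fbxl19 (−1.18), Sympk (−1.0, a factor of mRNA polyadenylation), Rnf25 (−0.85, a ubiquitin ligase) and Pyroxd1 (−0.65). With the median of a gene's probesets instead, Vapb differed by −0.41, Sympk by −0.33, Rnf25 by −0.29, Trnp1 by −0.83 and Cyp4f18 by 0.46. Kif21a (−1.51), Fbxl19 (−1.18) and Pyroxd1 (−0.65) changed less or not at all. Of these 20 genes, 14 differed in the same direction in the poorly differentiated tumors, against 49.3% of all genes, and for 10 of them the genotypes did not overlap there either, where with 2 Trp53 tumors 7.69% of all genes were separated upward and 8.49% downward. The groups did not overlap in the 9 tumors for any of the 20. Each therefore had to keep its direction when the mixed tumors and the undifferentiated and spindle tumors were taken separately. Across all 18193 genes the differences of the 2 grades correlated at −0.06, a description in which genes are not independent.

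**Figure D1:**
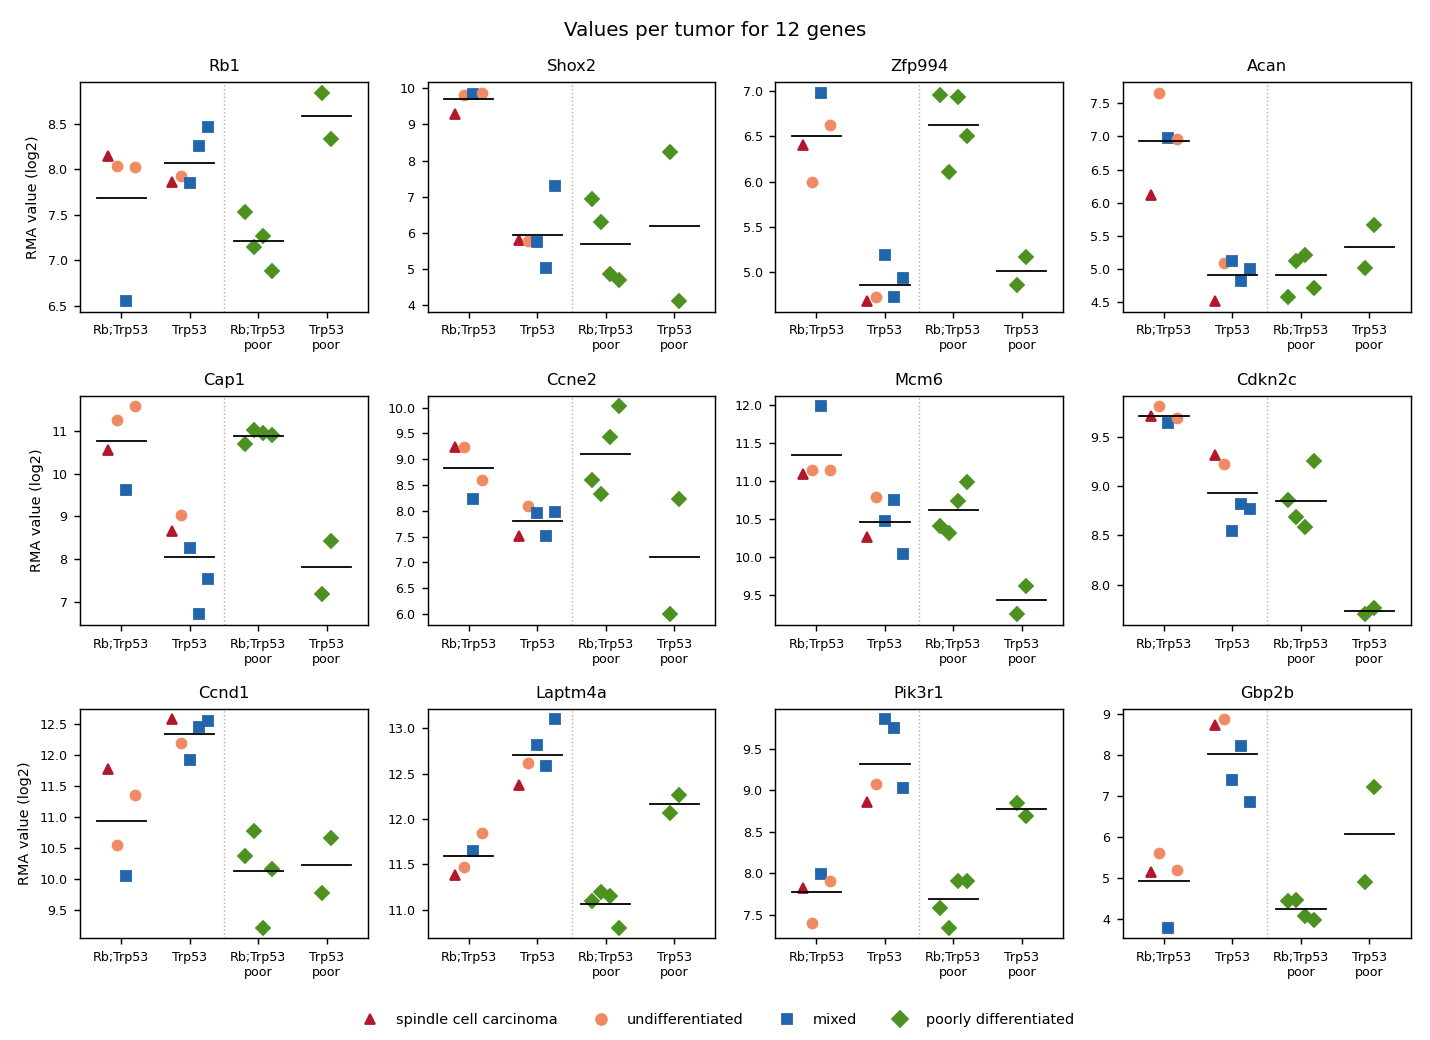
Log2 expression value (vertical axis, its own range in each panel) of 12 genes in the single tumors, as points coloured by histology, with a bar at each group mean; the poorly differentiated tumors stand to the right of the dotted line. Shox2 and Acan separate the genotypes only left of the line, whereas Cap1, Laptm4a, Pik3r1 and Zfp994 do so on both sides, and Rb1 overlaps between the genotypes on the left.

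**Figure D2:**
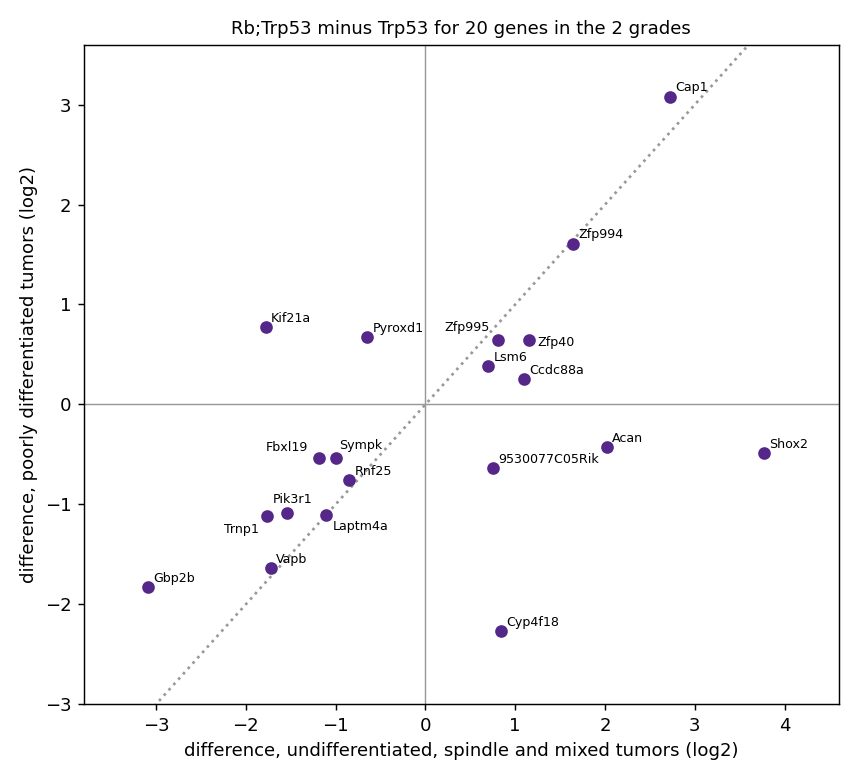
Difference between Rb;Trp53 and Trp53 tumors (log2) for the 20 genes with the smallest p, in the 9 undifferentiated, spindle and mixed tumors (horizontal axis) and in the 6 poorly differentiated tumors (vertical axis), with the dotted line at equal values. In all, 14 genes lie in the 2 quadrants of equal sign, Cap1, Zfp994, Laptm4a and Vapb close to the line, and Shox2, Acan and Cyp4f18 lie far from it.

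Genes of replication licensing, the step that loads the Mcm helicase onto origins before DNA synthesis and that E2F is known to control, were mostly higher in the Rb;Trp53 tumors. Of 23 measured, 0 passed the adjusted test and 21 had a difference above 0 (52.2% of all genes did). At an unadjusted p under 0.05 by limma, 11 were higher (2.5% of all genes) and 0 lower (3.18%). The median difference was 0.56 against 0.01 for all genes. The mean of the list was 9.34, 9.29, 9.40 and 9.01 against 8.53, 8.87, 8.81, 8.79 and 8.94, while skin was between 6.80 and 7.12. The groups did not overlap in this mean, with 9.01 the lowest Rb;Trp53 and 8.94 the highest Trp53 value. Such means were taken for 33 lists, and 1.19% of single genes were separated in this direction. The median was 0.53 both among the undifferentiated and spindle tumors and among the mixed tumors, and 0.52 in the poorly differentiated tumors, where 19 of the 23 were above 0 (47.8% of all genes). With the epithelial mean of each tumor as a covariate it was 0.60, with 23 of 23 above 0.

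The largest difference of the list was that of Mcm6, a subunit of the replicative helicase, at 11.10, 11.14, 11.99 and 11.15 against 10.26, 10.79, 10.47, 10.75 and 10.04 (0.88, SE 0.24, adjusted p = 0.75). Mcm3, another subunit, was at 10.23, 9.96, 10.64 and 9.86 against 9.26, 9.61, 8.86, 9.64 and 9.79 (0.74, SE 0.23), and Cdt1, which brings the helicase to origins, at 11, 11.14, 11.62 and 10.97 against 10.51, 10.84, 10.84, 9.66 and 10.23 (0.76, SE 0.27). These 3 genes did not overlap between genotypes in either grade. Geminin (Gmnn), the inhibitor of Cdt1, was at 9.49, 10.03, 9.86 and 9.39 against 8.77, 9.06, 9.3, 9.28 and 9.0 (0.61). It did not overlap in the 9 tumors, but was not among the genes separated in both grades. Cdc6, the partner of Cdt1 in loading, was at 8.78, 8.91, 8.43 and 8.29 against 7.44, 7.86, 7.59, 7.84 and 8.51 (0.75, SE 0.23), where Trp53 tumor 7 lay within the Rb;Trp53 range. The exceptions in the list were the origin recognition subunits Orc5 (−0.30) and Orc4 (−0.09).

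The promoters of 3 of the genes with higher values are shown from RefSeq (build GRCm38.p6, windows of 300 bases around the start of the gene, written 5′ to 3′ on the strand of the gene), because they hold words of the kind that E2F factors are known to bind. Capitals mark every match on either strand, with overlapping matches joined. The words searched were TTCCCGC, along with its close variant TTGGCGC, then a further variant TTCGCGC and finally the variant TTGCCGC. Mcm6 (chr1:128359656-128359955, minus strand) held 5 such matches, Cdc6 (chr11:98907901-98908200, plus strand) 1 and Cdkn2c, an Ink4 inhibitor described further on (chr4:109666707-109667006, minus strand), 1. A second start of Cdkn2c in the table (chr4:109665323-109665622) held 0. The promoters of Orc6, Shox2 and Zfp994, which were looked at too and are not shown, held 0 as well.
Mcm6: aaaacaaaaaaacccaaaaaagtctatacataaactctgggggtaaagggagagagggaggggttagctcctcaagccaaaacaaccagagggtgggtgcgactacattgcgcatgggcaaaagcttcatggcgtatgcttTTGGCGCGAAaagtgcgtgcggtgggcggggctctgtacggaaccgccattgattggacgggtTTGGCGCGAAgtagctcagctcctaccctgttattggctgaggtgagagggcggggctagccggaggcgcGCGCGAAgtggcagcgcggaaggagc
Cdc6: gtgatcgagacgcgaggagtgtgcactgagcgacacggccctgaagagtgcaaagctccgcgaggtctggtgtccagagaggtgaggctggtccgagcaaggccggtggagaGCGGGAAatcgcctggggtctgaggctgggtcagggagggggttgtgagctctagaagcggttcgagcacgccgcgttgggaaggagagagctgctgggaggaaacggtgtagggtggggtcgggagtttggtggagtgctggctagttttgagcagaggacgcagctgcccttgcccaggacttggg
Cdkn2c: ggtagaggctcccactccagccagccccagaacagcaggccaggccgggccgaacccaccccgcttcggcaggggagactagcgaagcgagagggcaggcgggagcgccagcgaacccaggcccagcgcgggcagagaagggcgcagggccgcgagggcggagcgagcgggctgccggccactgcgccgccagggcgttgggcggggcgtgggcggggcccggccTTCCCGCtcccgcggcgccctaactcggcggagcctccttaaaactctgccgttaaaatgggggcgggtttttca

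At least 1 of these words was in 11 of the 18 licensing promoters that the RefSeq table held (61.1%), in 17 of 27 of the replication fork genes (63%), in 8 of 10 of the DNA repair genes (80%) and in 2 of 18 of the mitotic genes (11.1%), against 16% of the promoters of the measured genes and 10.9% of all. Of the 20 genes with the smallest p, 2 of the 19 with a promoter held one (10.5%). A match is a description of the letters in this window and does not show a bound site.

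The genes of DNA synthesis, mitosis and DNA repair had smaller median differences than licensing in the 9 tumors. The replication fork and nucleotide synthesis genes, of which 30 were measured, had a median difference of 0.31 with 27 above 0, and Pola1, the catalytic subunit of DNA polymerase alpha, was at 8.83, 9.07, 8.90 and 8.96 against 7.57, 8.34, 8.58, 8.19 and 8.32 (0.74, SE 0.20, adjusted p = 0.749). In the poorly differentiated tumors the median of this list was 0.70, above that of licensing. Of the 23 mitotic genes 21 were above 0 with a median of 0.27. Of these, 2 were higher at an unadjusted p under 0.05 by limma (2.5% of all genes), Top2a (0.64) and Nek2 (0.48). The mitotic list mean overlapped between the genotypes (9.76, 9.77, 9.62 and 9.05 against 8.78, 9.51, 9.17, 9.19 and 9.68). Among 12 DNA repair genes the median was 0.23, and Msh6, which recognises mismatches, was at 9.69, 9.36, 9.55 and 9.12 against 8.66, 8.74, 8.94, 9.07 and 9.02 (0.54, SE 0.15). With the epithelial mean as a covariate the medians were 0.58 for the fork genes, 0.47 for the mitotic and 0.50 for the repair genes, closer to that of licensing. None of these genes passed the adjusted test.

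Upstream of E2F, 9 of the 10 pocket protein and Cdk inhibitor genes were higher in the Rb;Trp53 tumors, Rb1 being the exception, with a median of 0.62. Among poorly differentiated tumors 7 of the 10 were above 0 (median 0.63), and with the epithelial covariate 6 of the 10 (median 0.44). The Ink4 inhibitor Cdkn2c (p18) was at 9.71, 9.81, 9.64 and 9.69 against 9.31, 9.22, 8.55, 8.82 and 8.77 (0.78, SE 0.17, adjusted p = 0.71), and its relative Cdkn2d (p19) at 9.17, 9.53, 9.04 and 9.15 against 8.35, 8.80, 8.28, 8.0 and 8.77 (0.78, SE 0.20, adjusted p = 0.749). Neither overlapped. In the poorly differentiated tumors the difference of Cdkn2c was 1.11, again without overlap, and that of Cdkn2d −0.11. Cdkn1a, the p53 target p21, was at 9.94, 9.06, 9.71 and 9.63 against 9.20, 8.77, 8.87, 7.49 and 8.30 (1.06, SE 0.34, adjusted p = 0.796). Cdkn2a, which encodes p16 and p19Arf, varied widely in the Trp53 tumors, from 6.22 to 11.05, and lay between 9.59 and 10.96 in the Rb;Trp53 tumors (1.29, SE 0.84), against 4.01 to 4.29 in skin. The other pocket proteins differed by 0.10 (Rbl1, p107) and 0.35 (Rbl2, p130).

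The E2F and DP factors themselves did not form a pattern. Their 10 differences ran from −0.54 for E2f8 to 0.73 for Tfdp1 with a median of 0.19, and 0 of the 10 reached an unadjusted p under 0.05. E2f1, the prototype of the family, was at 8.24, 7.82, 7.33 and 8.08 against 8.22, 8.06, 6.92, 7.50 and 7.91 (0.15, SE 0.30). Among the 11 G1 cyclins and kinases a pair of cyclins had the smallest p, in opposite directions. Cyclin E2 (Ccne2) was at 9.24, 9.24, 8.23 and 8.60 against 7.51, 8.09, 7.96, 7.51 and 7.98 (1.01, SE 0.25, adjusted p = 0.749), without overlap here or in the poorly differentiated tumors, where the difference was 1.99. Cyclin D1 (Ccnd1) was at 11.78, 10.55, 10.06 and 11.36 against 12.58, 12.20, 11.93, 12.46 and 12.56 (−1.41, SE 0.34, adjusted p = 0.749). All 4 Rb;Trp53 tumors lay below all 5 Trp53 tumors, while the poorly differentiated tumors overlapped with a difference of −0.09.

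**Figure D3:**
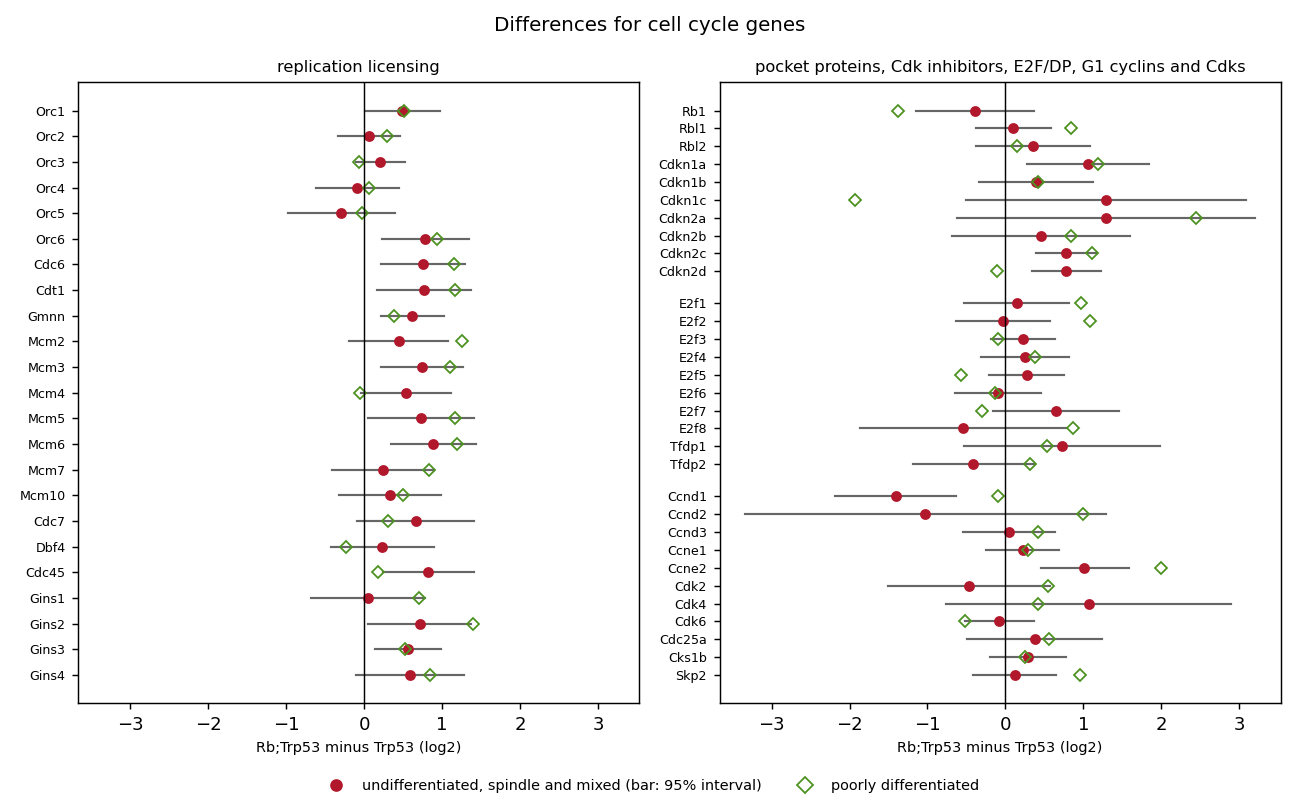
Difference between Rb;Trp53 and Trp53 tumors (log2, horizontal axis) for each licensing gene (left) and for pocket proteins, Cdk inhibitors, E2F and DP factors and G1 cyclins and Cdks (right), with 95% intervals for the 9 tumors (filled points) and the value in the 6 poorly differentiated tumors (open points). Of the 23 licensing genes 21 lie right of 0, Ccne2 lies at 1.01 and Ccnd1 at −1.41.

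Genes without overlap in the same direction in both grades numbered 71, 0.39% of the genes tested, with 38 higher and 33 lower in the Rb;Trp53 tumors. The 38 were 17.6% of the 216 genes separated in the 9 tumors, where 7.69% of all genes were separated that way in the poorly differentiated tumors alone, and the 33 were 14.9% of the 222, against 8.49%. On the cell cycle lists, with 119 genes measured, were 7 of the 38, namely Ccne2, Cdkn2c, Cdt1, Mcm3, Mcm6, Msh6 and Rfc3, and 0 of the 33. Of all genes 0.39% were in either set. An E2F-type word was in the promoter of 12 of the 31 higher genes with a promoter in the table (38.7%), against 16% of measured genes. These 12 include Cdkn2c, Cdt1, Mcm3, Mcm6, Msh6 and Rfc3, so the share is not separate from their count on the lists. Among the 28 lower genes with a promoter 4 held a word (14.3%). Of the other genes in this set, chosen after their values were seen, Dscc1, a subunit of the clamp loader of sister chromatid cohesion, was at 7.77, 8.26, 7.43 and 7.92 against 6.51, 7.34, 7.24, 6.80 and 7.23 (0.82, SE 0.23, adjusted p = 0.75). In the poorly differentiated tumors its difference was 1.90 and passed the test (adjusted p = 0.0285), where 3 genes in all were called higher (0.0165%) and 6 lower (0.033%). Donson (0.62), Neil3 (0.63), Smc1a (0.49) and Zfp367 (0.99), which act in replication, base excision repair, cohesion and transcription, were also among the 38. The same 38 held genes not picked out here, such as Adsl (0.38), Fnta (1.07) and Timm17b (0.61). Prmt1, the main arginine methyltransferase of many cells, was among the 33, at 9.18, 9.17, 9.53 and 9.63 against 10.29, 11.65, 10.69, 10.54 and 11.50 (−1.56, SE 0.30, adjusted p = 0.559).

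Zfp994, Zfp995 and Zfp40, all among the genes with the smallest p, lie in 1 cluster of zinc finger genes, though not side by side. The cluster was looked at after their values were seen. The stretch from Zfp995 to Zfp40 held 16 protein-coding genes, 10 of them named Zfp, and 9 were measured by 20 probesets. Of the 9 genes 8 were above 0 (52.2% of all genes were), with a median of 0.58. These values include Zfp994, Zfp995 and Zfp40, which prompted the look. Zfp994 was at 6.40, 5.99, 6.98 and 6.62 against 4.68, 4.73, 5.19, 4.73 and 4.94 (1.64, SE 0.21, adjusted p = 0.172), and at 6.95, 6.11, 6.93 and 6.5 against 4.86 and 5.17 in the poorly differentiated tumors. Normal skin, which is wild type, lay between 5.66 and 6.71 and so with the Rb;Trp53 tumors. A probeset of Zfp945 gave the same picture, with 7.67, 7.04, 8.11 and 7.35 against 4.15, 4.78, 5.03, 4.75 and 5.05 (2.79, adjusted p = 0.0859 over all probesets) and skin between 5.94 and 7.36. The other 2 probesets of Zfp945 differed by −0.72 and −0.26, so the gene as a whole has no direction. Zinc finger genes of one cluster can share sequence, and whether a probeset here measures more than 1 of them was not tested.

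The groups also differed in the genes of other tissues, none of which passed the adjusted test. All 27 epithelial junction and basal genes were lower in the Rb;Trp53 tumors, with a median of −1.98, and Trp63, the transcription factor of basal keratinocytes, was at 6.27, 4.90, 3.80 and 3.68 against 3.78, 6.80, 11.35, 9.78 and 8.85 (−3.45, SE 1.41, adjusted p = 0.874). Between the 3 Rb;Trp53 and the 2 Trp53 tumors of undifferentiated or spindle histology the median was only −0.24, against −2.81 between the mixed tumors, and it was 0.22 in the poorly differentiated tumors. The p53 target Perp, a desmosomal protein, followed these genes (8.58, 5.69, 4.74 and 5.94 against 6.81, 9.21, 11.16, 11.15 and 9.94). Of 29 mesenchymal genes 27 were above 0 with a median of 0.63, which was −0.18 among the undifferentiated and spindle tumors, and of 21 macrophage genes 20 were above 0 with a median of 0.84, which was −0.05 there. With the epithelial mean as a covariate both medians changed sign, to −0.45 for mesenchymal and −0.73 for macrophage genes. Of the 20 T and NK cell genes 19 were above 0, with a median of 0.65. That median was 0.47 among the undifferentiated and spindle tumors, 0.01 among the mixed tumors and 0.22 with the epithelial covariate, and in the poorly differentiated tumors it was −0.19, with 4 of the 20 above 0. The 21 p53 targets had a median of −0.08, the 15 Polycomb genes of −0.03 and the 21 hypoxia and glycolysis genes of 0.07.

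Skeletal muscle RNA differed between single tumors. The mean of 29 muscle genes was 5.14, 5.11, 5.32 and 5.02 in the Rb;Trp53 tumors and 7.14, 5.05, 5.31, 6.54 and 6.88 in the Trp53 tumors, against 12.16 to 12.85 in skin, so that 3 of the 5 Trp53 tumors stood above the rest. The median difference was −1.02, 13 of the 29 were lower at an unadjusted p under 0.05 (3.18% of all genes), and 4 did not overlap (Acta1, Myh1, Mylpf and Casq1, against 1.22% of all genes). Acta1, the actin of skeletal muscle, was at 6.79, 6.49, 6.54 and 6.16 against 10.83, 7.22, 7.33, 10.23 and 9.75 (−2.58, SE 0.78, adjusted p = 0.775). The part of epithelial, stromal and muscle RNA in the differences of other genes was not tested beyond the covariate given for the lists.

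**Figure D4:**
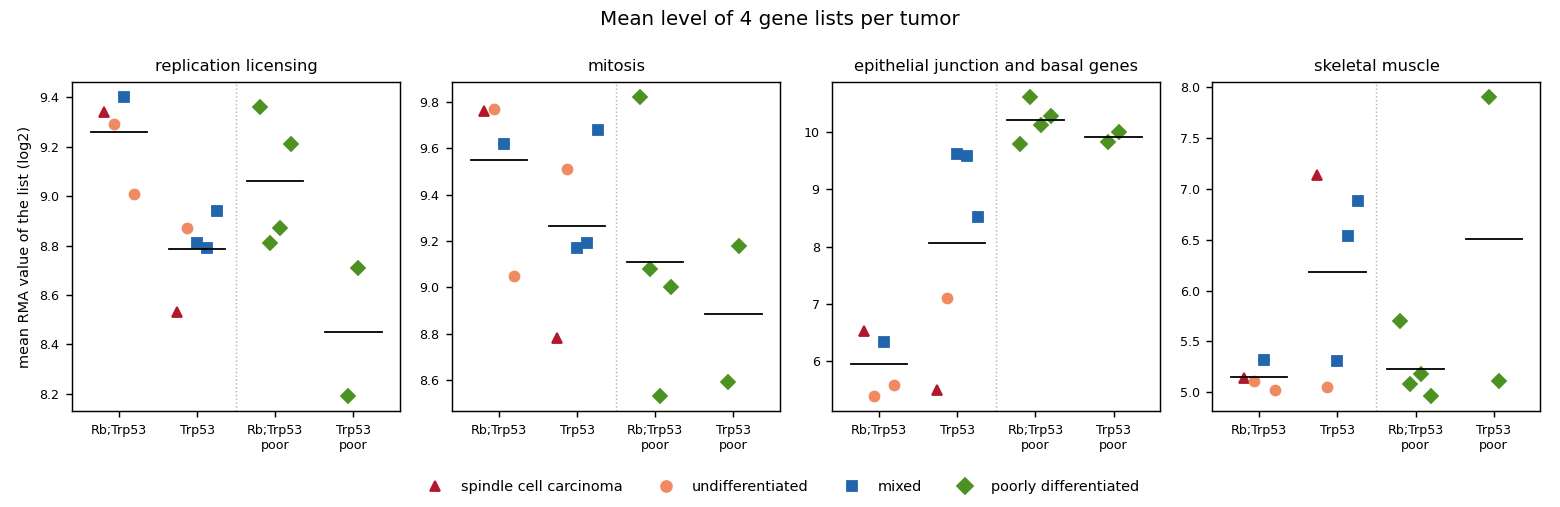
Mean log2 value of 4 of the 33 gene lists in the single tumors (vertical axis, its own range in each panel). Points are coloured by histology, with bars at group means, and poorly differentiated tumors stand right of the dotted line. The licensing mean separates the genotypes on the left (9.01 to 9.40 against 8.53 to 8.94), the mitosis mean overlaps, and the epithelial and muscle means spread widely among the Trp53 tumors.

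A test of whether the effect of Rb1 loss differed between the 2 grades, over all 15 tumors, called 5 genes (0.0275%), with 5.44% at an unadjusted p under 0.05. In the 9 tumors themselves, 4 of the 5 differed little, by 0.25 for Glycam1, −0.21 for Sprr2i, −0.12 for Fam3b and 0.01 for Defb4, and Cyp4f18 by 0.84. Defb4, a beta-defensin, was at 3.28, 3.27, 3.0 and 3.08 against 3.04, 3.07, 3.20, 3.21 and 3.19, while in the poorly differentiated tumors it was at 3.6, 3.76, 3.76 and 3.87 against 8.43 and 6.71. The difference between the 2 effects was 3.83 (SE 0.40, adjusted p = 0.00625). It was 3.11 for Cyp4f18 (adjusted p = 0.0138), 1.80 for Sprr2i of the cornified envelope and 1.18 for Glycam1 (both adjusted p = 0.0232), and −1.96 for Fam3b (adjusted p = 0.0355). The poorly differentiated group held 2 Trp53 tumors only, and 19 genes were called higher and 2 lower without tumor 4, and 22 higher and 0 lower without tumor 6. Without Rb;Trp53 tumor 5 the count was 1 higher, without Rb;Trp53 tumor 3, 4 or 8 or Trp53 tumor 1, 3 or 7 it was 2 higher, and without Rb;Trp53 tumor 2 it was 5 higher and 3 lower. Defb4 kept its call whichever of the 15 tumors was left out, Cyp4f18 lost it without Rb;Trp53 tumor 5 (adjusted p = 0.0519), and each of the other 3 lost it in most of these fits. Among the brighter genes alone 0 were called. Brightness was taken in the 9 tumors, and the 5 genes were not in that set, so they could not be called there.

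Some single tumors stood apart in the genes of the Rb axis. Cdk4, the kinase of cyclin D, was at 14.43 in Rb;Trp53 tumor 4 and between 9.78 and 11 in the other 8 tumors, so that the mean difference of 1.07 (SE 0.80) came from 1 tumor and was −0.30 without the mixed tumors. Because of this value the genes were put in chromosomal order (RefSeq, GRCm38.p6) and scanned for runs in which the median over 7 neighbouring genes of a tumor lay more than 1.5 from the median of the other 8 tumors. In Rb;Trp53 tumor 4, 26 measured genes of chromosome 10 from Lrig3 to Gli1 formed such a run, which includes Cdk4. Of these, 22 were highest of the 9 tumors in this tumor, and the median difference from the others was 3.9. Both values describe genes that the scan had picked because they were high in this tumor. Gli1, the transcription factor of Hedgehog signalling, was at 13.98 in this tumor against 4.05 to 12.47, and Mettl1, a tRNA methyltransferase, at 12.52 against 6.82 to 7.87.

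Tfdp1, the DP partner of E2F, stood out in Rb;Trp53 tumor 3 in a less uniform setting. It was at 12.76 there and between 9.42 and 10.96 in the other tumors, and 27 of 50 measured genes around it on chromosome 8, from Lig4 to Arhgef10, were highest in this tumor. Short runs found in this tumor set both ends of the stretch, so the count rests on the values that bounded it. Over these 50 genes the median difference from the other tumors was 1.04, below the 1.5 of a run, and 22 genes lay past it. They held 4 short runs of 4, 7, 8 and 9 genes, that of 8 genes from Pcid2 to Tfdp1 having a median of 2.18. The runs of 7 and 8 genes shared Pcid2 and Cul4a. Cul4a, a scaffold of ubiquitin ligases, was at 10.72 against 7.70 to 9.27. In all, 118 runs were found in the 9 tumors, some sharing genes with another run. Of these, 91 had higher values, and of the 16 with 10 or more genes 15 were higher. Trp53 tumors 5 (21 higher, 12 lower) and 7 (19 and 6) held the most. Rb;Trp53 tumor 4 held 8 and 7, and Rb;Trp53 tumor 3 held 8 and 0. The fewest were in Trp53 tumor 1 and Rb;Trp53 tumor 5, with 1 and 0 each. Runs of 10 or more genes were also found in Trp53 tumors on chromosome 10 (tumors 3 and 5), chromosome 5 (tumor 2) and chromosome 1 (tumor 7), and that of tumor 3 from Dctn2 to Nemp1 again held Gli1, at 12.47. Others followed clusters of related genes such as keratin-associated proteins and granzymes. DNA copy number was not measured, and the cause of the runs was not tested.

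**Figure D5:**
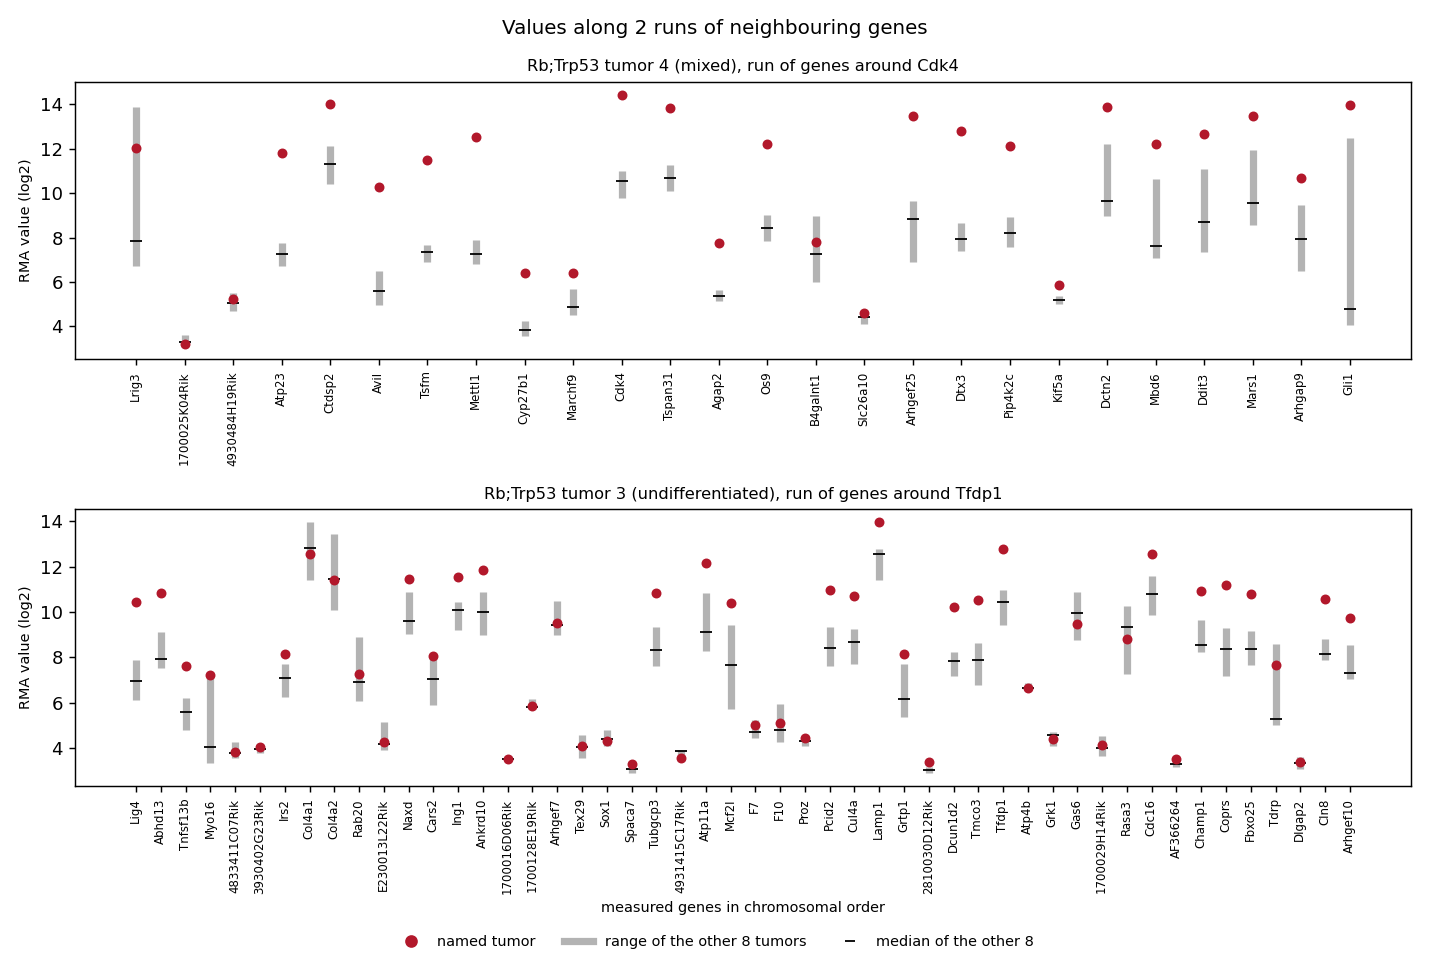
Log2 value (vertical axis) of the measured genes in chromosomal order around Cdk4 in Rb;Trp53 tumor 4 (upper panel) and around Tfdp1 in Rb;Trp53 tumor 3 (lower panel), as red points, with the range (grey bars) and median (black marks) of the other 8 tumors. In the upper panel 22 of 26 red points lie above the whole grey range, in the lower panel 27 of 50. Both stretches were bounded by high values of the named tumor.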

How the data were processed

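The authors extracted total RNA from tumors and skin with a kit for fibrous tissue, tested its integrity, labelled it with biotin and hybridised it to Affymetrix arrays. They background-corrected, normalized and summarized the probes by RMA (version not given in the sources used here), and the deposited log2 values run from 2.34 to 14.72. Copy number, protein and other datasets of the study were not used here, and Trp53 was not analysed here.

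The members and gene lists were chosen with earlier results of these data known. Of 45101 probesets, 64 array controls were left out. The annotation gave 1 gene symbol for 34945 of the 45037 probesets tested, several for 932 and none for 9160, and 204 had an identifier not in the RefSeq table. Each gene was represented by whichever of its probesets was brightest on average across the 20 arrays. The comparison of the 2 genotypes ran lmFit and eBayes of limma 3.58.1 under R 4.3.3 on the 9 tumors, or on 15 for the difference between grades, and two-sided p-values were adjusted across all genes or probesets by the method of Benjamini and Hochberg. The code was tested on simulated data. The 33 lists held 517 genes. The genes named were Rb1 and all members of the pocket protein, E2F, G1 and neighbour lists, the 10 with the smallest p in each direction where none passed the test, the 3 with the smallest p of each other list, and the 5 with the smallest p in each direction for the difference between grades. No 2 arrays held identical values (highest correlation 0.993), and the number of arrays limits the precision. Alternatives were another probeset rule, median centring, brighter genes, the methods' t-test and Welch's test after adjustment, mixed histology as a covariate, all 15 tumors in the fit, no mixed tumors, a replicate block, trend and robust settings and leaving out each tumor. The epithelial mean as a covariate was chosen after seeing the data. Other steps used Python 3.11.15 with pandas 2.3.3, numpy 2.4.6, scipy 1.17.1 and matplotlib 3.10.9.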

Additional observations from a re-analysis of the deposited data

Results flagged for a closer look

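In 302 groups of 4 or 5 tumors, from 151 genes named by rule, 27 had a highest or lowest tumor far from the others by Dixon's test, which chance gives in about 1 of 20 groups. Rb;Trp53 tumor 4 stood apart most often. It was high for Cdk4 (14.43), Mcm6 (11.99), E2f6 (9.48), Tfdp2 (8.65) and Pyroxd1 (6.92) and low for Rb1 (6.55), B2m of MHC class I (12.88) and the EMT factor Zeb1 (9.22). Rb;Trp53 tumor 3 was high for Tfdp1 (12.76), the B cell genes Ighm (9.91) and Ms4a1 (5.09) and the erythroid gene Alas2 (6.83). Rb;Trp53 tumor 1 was low for Shox2 (9.28) and Pdk1 (6.78), and Rb;Trp53 tumor 5 high for Rnf25 (7.38).

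Among the Trp53 tumors, tumor 1 was high for the Ink4 inhibitor Cdkn2b (11.25) and low for Rbbp7 (12.01) and Hba-a1 (3.24). Tumor 2 was high for the lymphocyte genes Cd3d (7.18), Ighm (8.54) and Jchain (8.44). Tumor 5 was high for the neural crest factor Sox10 (10.75) and for Sprr2i (4.42) and low for the matrix gene Sparc (11.21). Tumor 7 was high for Cdc25a (8.79), the melanocyte gene Mlana (5.66) and Aadacl2fm1 (3.45).

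The effect of Rb1 loss differed between the 2 grades by limma's test for Defb4 (3.83), Cyp4f18 (3.11), Sprr2i (1.80), Glycam1 (1.18) and Fam3b (−1.96).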

How the results depend on the processing

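For the 20 genes with the smallest p, all 391 alternative values had the same direction. The groups did not overlap for any of the 20. Leaving out tumors or using another test on the same values therefore could not have reversed a direction. Of the 391 values, 6, for 5 genes, had an adjusted p under 0.05. These were Shox2 among the brighter genes (adjusted p = 0.034) and without Trp53 tumor 7, Gbp2b with mixed histology as a covariate (−3.58, adjusted p = 0.026), and Acan, Laptm4a and Zfp994 in the fit with all 15 tumors (adjusted p = 0.0455 for each). Genes called higher numbered 1 with the median of probesets, 1 among the brighter genes and 2 with all 15 tumors, and genes called lower 1 with mixed histology as a covariate and 1 with all 15 tumors. Probesets called at 0.05 numbered 2 higher among the brighter, 4 higher and 1 lower with mixed histology as a covariate, and 6 higher and 7 lower with all 15 tumors. At 0.1 they were 0 and 0 by the methods' t-test and by Welch's test, 5 higher and 1 lower with mixed histology, 6 and 8 with all 15 tumors, 1 lower without the mixed tumors, and 1 higher and 0 lower with the epithelial covariate. At an unadjusted p under 0.05, 236 genes were higher and 323 lower among the brighter ones. Fewer genes were tested there, so these counts do not compare directly with those over all genes. The difference between grades called 0 and 0 genes among the brighter, a set that did not hold the genes called in the main fit. With mixed histology it called 2 higher and 0 lower. Leaving out single tumors gave 0 to 1 genes called higher (1 without Trp53 tumor 7) and 0 lower, 303 to 663 higher and 360 to 801 lower at an unadjusted p under 0.05 (the lowest of both without Rb;Trp53 tumor 3), 0 to 1 probesets higher and 0 lower at 0.05, 0 to 4 higher and 0 to 7 lower at 0.1, and 1 to 22 higher and 0 to 3 lower for the difference between grades. It moved the Rb1 difference between −0.54 and −0.01.

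The numbers 1, 3 and 5 are in both genotypes, but same-numbered tumors deviated together only for number 1 (correlations 0.31, −0.13 and −0.11), so they were taken to share only a number. With the replicate block 0 genes were called in either direction, 767 genes were higher at an unadjusted p under 0.05, 0 probesets passed 0.1 in either direction, and the Rb1 difference turned to 0.07 (adjusted p = 0.921). Without the mixed tumors it was 0.16 (adjusted p = 0.774).

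Of 659 alternative medians of lists 12 moved. Without the mixed tumors the median was −0.06 for E2F and DP factors, −0.31 for apoptosis genes with E2F sites and −0.24 for epithelial genes. With the epithelial covariate it was 0.58 for fork genes, 0.50 for DNA repair, −0.31 for apoptosis genes, 0.05 for epithelial, −0.45 for mesenchymal, −0.73 for macrophage and −0.57 for endothelial genes. Among the brighter genes it was 0.49 for smooth muscle and 1.16 for neutrophils. The licensing median stayed between 0.49 and 0.63 under all alternatives. The causes were not tested.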

Other observations

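Of the 6 probesets with an adjusted p under 0.1, 2 have no gene name in the annotation used here. The first was at 7.48, 7.21, 9.38 and 7.79 in the Rb;Trp53 tumors and at 3.75, 3.49, 4.58, 3.62 and 4.20 in the Trp53 tumors, with 6.36, 6.0, 6.46 and 7.19 against 3.23 and 3.41 in the poorly differentiated tumors and 3.01 to 3.26 in skin. The second was at 4.32, 4.27, 4.40 and 5.03 against 6.44, 7.03, 6.71, 7.61 and 6.66, with 4.36, 5.22, 4.36 and 5.5 against 7.66 and 7.14 in the poorly differentiated tumors and 4.82 to 5.11 in skin. Both separated all 8 Rb;Trp53 tumors of the series from all 7 Trp53 tumors.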
